A study of Mus musculus with 18 samples.

Results

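The genes described here are 44 mouse genes of DNA replication and cell division, chosen by name. Of these, 10 act in DNA replication, 31 act in mitosis and its control, and the other 3 are Mki67, Top2a and Chek1. A gene was measured when the array's platform annotation gave at least 1 transcript cluster to that gene alone, and where a gene had several such clusters, the brightest one by its average across the 18 arrays stood for it. By this rule 43 of the 44 genes were measured, among 22180 genes in all. Ccnb1, which encodes cyclin B1, had no cluster named for it alone and has no value here.

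The study asked how transport stress affects female mice under superovulation, the hormone treatment that makes the ovary release many oocytes. Stressed mice were driven 1000 km over nearly 10 h at an average of 50 km/h, and control mice stayed in the laboratory. All mice were superovulated females of the strain labelled BABL/c, chosen at 6 weeks and kept until 9 weeks of age, with 1 littermate of each of 10 pairs in each group. Controls were therefore superovulated too, and no ovary of an unstimulated mouse enters these comparisons. The ovary, pituitary and hypothalamus of each treatment gave 3 arrays per tissue. Within each treatment, the mouse that ovulated the most oocytes gave the high array, the one that ovulated the fewest gave the low array, and the other 8 mice together gave the pool array. The labels do not say that the high or the low mice of the stress and control groups were littermates. A group of 3 arrays thus holds 2 single mice, picked as extremes of ovulation, and 1 pool, and p-values measure the spread among these arrays only.

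Cells copy their DNA in S phase and divide in M phase. In S phase the MCM helicase opens the DNA ahead of the polymerases, and the clamp PCNA holds the polymerases on it. In M phase CDK1 with a cyclin starts division, the spindle pulls the chromosomes apart, and the anaphase-promoting complex then destroys the cyclins. Genes of both phases are transcribed mainly in dividing cells, so their level in a whole tissue is commonly read as a measure of how many cells divide. In the ovary, granulosa cells of growing follicles divide and luteal cells largely do not, while oocytes store transcripts of several of the same genes.

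The values are signals on the log2 scale, and a difference of 0.5 on that scale is a 1.41-fold difference in signal. Array medians lay between 4.755 and 5.027 and the highest value was 13.66. Correlations between arrays of the same tissue were 0.941 to 0.993, against 0.828 to 0.941 between arrays of different tissues. The tissue labels were checked against markers. The summed linear signal of 5 luteal genes was 20270 to 26120 in the ovary arrays, and that of 7 pituitary hormone and hormone-subunit genes was 35500 to 45680 in the pituitary arrays. That of 7 hypothalamic neuron genes was 6958 to 9244 in the hypothalamus arrays, against 196.7 to 2288 in the 12 arrays of the other tissues. Several pool arrays also carried markers of another tissue. The luteal sum was 4089 in the stressed pituitary pool and 94.33 to 153.5 in the other 5 pituitary arrays. It was 2035 in the stressed hypothalamus pool and 89.28 to 258.7 in the other 5 hypothalamus arrays. The pituitary hormone sum was 4569 in the stressed ovary pool and 3144 in the control ovary pool, against 163.9 to 215.2 in the other 4 ovary arrays. Single mice carried such markers in the hypothalamus. Prl was 9.26 in the control low and 8.68 in the stressed high mouse, against 5.53 to 7.69 in the other hypothalamus arrays. Gh was 8.14 and 7.81 in those mice, against 5.67 to 7.37. Leaving out the pools does not remove these arrays. The medians over the genes in the tissue, stress and interaction comparisons, and the counts called between tissues, are therefore also given without the pools.

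The promoters of the genes were searched because the group moved together between tissues, as described further on. RefSeq promoter sequence (build GRCm38.p6, 250 bases before to 50 after the gene's start) was found for 38 of the 44 genes, and not matched for Mcm4, Ccna2, Foxm1, Aurkb, Kif20a and Tpx2. The CHR element, searched as TTTGAA or TTCGAA on both strands, is known as a site through which mitosis genes are kept silent outside G2 and M phase. It was present in 22 of the 38 promoters (57.9%), against 19.2% of all 32851 promoters in the table. Among the mitosis genes 18 of 26 held it (69.2%), and among the replication genes 2 of 9 (22.2%). This difference rested on the 50 bases after the start: in the 250 bases before it alone, 7 of 26 mitosis genes (26.9%) and 2 of 9 replication genes (22.2%) held a CHR, against 17.1% of all promoters. CCAAT, the NF-Y box, was present in 28 of 38 (73.7%), against 37.4% of all promoters. The E2F site, searched as TTTCCCGC, TTTCGCGC, TTTGCCGC or TTTGGCGC, was present in 4 of 9 replication genes (44.4%) and 1 of 26 mitosis genes (3.85%), against 2.26% of all promoters. A CHR lay between 30 bases before and 50 bases after the start in 18 of the 38 genes. The share of all promoters for that window was not counted, so this is not read as a position particular to the group. These matches are letters in a window and were not tested as binding sites.

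The following stretches of 170 bases before the start are examples, the first 4 from mitosis genes and the last 2 from replication genes. The 4 mitosis genes are among the 7 of 26 with a CHR before the start, so they are not typical of the 26. Cdk1 is the only mitosis gene with an E2F match. Both replication genes are among the 4 of 9 with an E2F match. Each is given 5′ to 3′ on the gene's own strand, and capitals mark the CHR, CCAAT and E2F letters. A CHR reads as TTCAAA and a CCAAT as ATTGG where it lies on the other strand. The E2F matches on the 2 strands overlap in Mcm5 and in Mcm6.
Cdk1, minus strand, chr10:69352913-69353082: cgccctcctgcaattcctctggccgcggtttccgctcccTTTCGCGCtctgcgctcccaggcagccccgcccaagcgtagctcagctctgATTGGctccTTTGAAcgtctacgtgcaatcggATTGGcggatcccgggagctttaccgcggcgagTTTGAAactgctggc
Cdc20, minus strand, chr4:118437344-118437513: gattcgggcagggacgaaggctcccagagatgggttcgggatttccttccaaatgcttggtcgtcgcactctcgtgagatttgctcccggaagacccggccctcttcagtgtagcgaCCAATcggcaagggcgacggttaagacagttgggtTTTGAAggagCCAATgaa
Ube2c, plus strand, chr2:164769759-164769928: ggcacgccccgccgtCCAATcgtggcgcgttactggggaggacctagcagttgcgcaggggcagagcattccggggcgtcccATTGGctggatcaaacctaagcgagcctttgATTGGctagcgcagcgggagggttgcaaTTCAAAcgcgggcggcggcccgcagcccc
Kif11, plus strand, chr19:37376212-37376381: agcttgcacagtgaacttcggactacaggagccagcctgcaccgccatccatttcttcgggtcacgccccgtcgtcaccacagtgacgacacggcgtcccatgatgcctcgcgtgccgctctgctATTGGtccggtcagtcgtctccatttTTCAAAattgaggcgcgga
Mcm5, plus strand, chr8:75109339-75109508: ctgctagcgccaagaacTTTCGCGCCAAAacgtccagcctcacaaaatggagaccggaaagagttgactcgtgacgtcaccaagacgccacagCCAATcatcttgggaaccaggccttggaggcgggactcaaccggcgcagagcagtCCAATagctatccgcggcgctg
Mcm6, minus strand, chr1:128359706-128359875: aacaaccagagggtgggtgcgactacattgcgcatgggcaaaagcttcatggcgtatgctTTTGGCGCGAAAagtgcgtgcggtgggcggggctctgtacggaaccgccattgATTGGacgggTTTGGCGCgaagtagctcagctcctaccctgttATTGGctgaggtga

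The level of the genes differed between the tissues far more than between treatments. In the ovary 42 of the 43 genes were higher than in the hypothalamus at an adjusted p under 0.05 (limma, arrays of the same animal or pool as a block, Benjamini-Hochberg over all genes), where 27% of all genes passed in that direction. The median difference over the 43 genes was 2.00, against 0.03 over all genes. Against the pituitary, all 43 were higher in the ovary, where 23.2% of all genes passed, with a median difference of 1.39 against -0.01 over all genes. In the pituitary 38 of 43 were higher than in the hypothalamus, where 21.5% of all genes passed, and 1 was lower, where 20.8% passed; the median was 0.66 against 0.04 over all genes. Without the pool arrays 42, 38 and 34 of the 43 genes passed in these comparisons, against 42.4%, 38.1% and 37% of all genes in either direction, and the medians were 1.98, 1.20 and 0.82. In whole tissue, fewer cells of a type and less RNA per cell cannot be told apart.

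The separation was complete for many genes. For 28 of the 43, all 6 ovary arrays lay above all 12 arrays of the other tissues, which held for 8.64% of all genes. For 11 of the 43, all 6 hypothalamus arrays lay below all others, against 4.83% of all genes. Top2a, Ccna2, Ccnb2, Plk1, Bub1b and Kif23 kept the full order of ovary above pituitary above hypothalamus with no overlap, which 1.19% of all genes did.

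**Figure D1:**
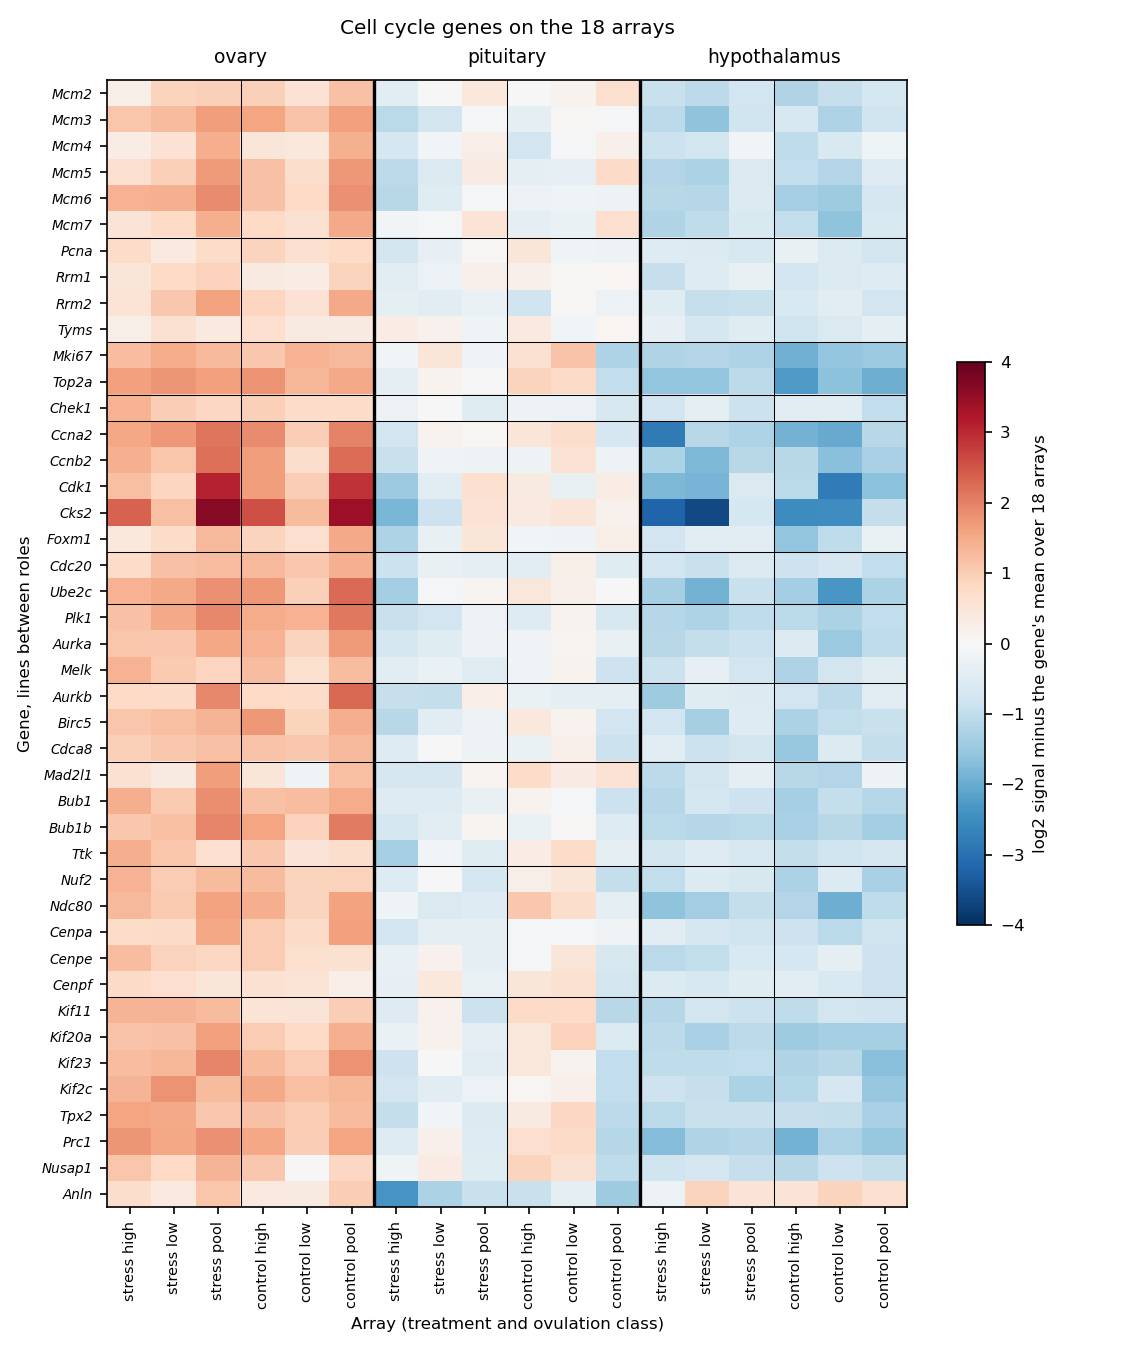
Level of the 43 genes on the 18 arrays, each gene shown as its log2 signal minus its own mean over all arrays, with genes in rows grouped by role and arrays in columns grouped by tissue and treatment. The ovary columns are the highest for most genes, and Anln in the last row is lowest in the pituitary columns.

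Among the replication genes, the MCM helicase subunits had a median difference of 2.03 between ovary and hypothalamus and of 1.17 between ovary and pituitary. Mcm6 had log2 signals of 7.08 to 8.17 in the ovary (median 7.69), 5.16 to 6.20 in the pituitary (median 6.06) and 4.86 to 5.73 in the hypothalamus (median 5.15). The ovary arrays stood apart from both other tissues, while pituitary and hypothalamus overlapped. The ovary exceeded the pituitary by 1.81 ± 0.157 (SE, adjusted p = 3.74e-08) and the hypothalamus by 2.46 ± 0.157 (adjusted p = 3.35e-10). For Mcm2 the step between pituitary and hypothalamus, 1.05 ± 0.129 (adjusted p = 3e-06), was larger than the one between ovary and pituitary, 0.68 ± 0.129 (adjusted p = 0.000321). Mcm2 signals were 7.21 to 8.16 in the ovary, 6.52 to 7.60 in the pituitary and 5.76 to 6.28 in the hypothalamus, so the hypothalamus alone stood apart.

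The clamp and nucleotide-supply genes had the smallest tissue differences among the roles, with a median of 1.24 between ovary and hypothalamus and 0.75 between ovary and pituitary. Pcna, the sliding clamp, had signals of 8.99 to 9.49 in the ovary, 7.86 to 9.09 in the pituitary and 7.85 to 8.30 in the hypothalamus. Ovary and pituitary overlapped through 1 pituitary array, and the ovary exceeded the pituitary by 0.85 ± 0.135 (adjusted p = 4.79e-05). Tyms, thymidylate synthase, had the smallest ovary excess over the pituitary, 0.33 ± 0.128 (adjusted p = 0.045, higher in 5 of 6 animals or pools), and this call was lost in 14 of the alternative fits. Rrm2, the regulated subunit of ribonucleotide reductase, was higher in the ovary than in the hypothalamus by 1.73 ± 0.183, and its pituitary excess over the hypothalamus of 0.35 ± 0.183 did not pass (adjusted p = 0.146).

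The proliferation antigen Mki67 and the DNA topoisomerase Top2a, which untangles sister chromosomes, differed between all tissues. Mki67 signals were 8.11 to 8.53 in the ovary (median 8.34), 5.82 to 8.19 in the pituitary (median 7.24) and 5.11 to 5.88 in the hypothalamus (median 5.69). The ovary arrays lay within a narrow band, and the pituitary arrays reached into the range of both other tissues. The ovary exceeded the pituitary by 1.17 ± 0.245 (adjusted p = 0.000729), and the pituitary exceeded the hypothalamus by 1.55 ± 0.245 (adjusted p = 4.86e-05). Top2a was 7.22 to 7.70 in the ovary, 4.90 to 6.77 in the pituitary and 3.62 to 4.85 in the hypothalamus, with no overlap between any of the tissues. Its differences were 1.56 ± 0.24 between ovary and pituitary (adjusted p = 3.57e-05) and 1.75 ± 0.24 between pituitary and hypothalamus (adjusted p = 1.07e-05).

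Cyclins, CDK1 and their partners had the largest differences among the roles, with medians of 3.40 between ovary and hypothalamus and 1.74 between ovary and pituitary. Cks2, a small subunit that binds CDK1, differed most of all the genes. Its signals were 7.82 to 10.26 in the ovary (median 9.10), 4.81 to 7.20 in the pituitary (median 6.91) and 3.01 to 5.91 in the hypothalamus (median 4.12). The ovary stood apart, and pituitary and hypothalamus overlapped. The ovary exceeded the hypothalamus by 4.66 ± 0.308 (adjusted p = 5.15e-10) and the pituitary by 2.58 ± 0.308 (adjusted p = 1.91e-06). Cks2 is uncertain in 1 respect: 4 clusters carry its name, 3 of them with identical values, and the fourth had means of 7.67 in the ovary, 5.56 in the pituitary and 4.59 in the hypothalamus.

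Ccna2, cyclin A2, which works from S phase into mitosis, had signals of 7.49 to 8.65 in the ovary, 5.73 to 7.19 in the pituitary and 3.65 to 5.38 in the hypothalamus. None of the tissues overlapped, and the ovary exceeded the hypothalamus by 3.42 ± 0.256 (adjusted p = 2.69e-09). Cdk1, the kinase that drives entry into mitosis, was higher in the ovary than in the hypothalamus by 3.40 ± 0.243 (adjusted p = 1.45e-09) and than in the pituitary by 1.92 ± 0.243 (adjusted p = 3.82e-06). Ccnb2, cyclin B2, exceeded the pituitary level in the ovary by 1.74 ± 0.234 (adjusted p = 7.58e-06). Foxm1, a transcription factor for many of the other genes here, differed less: 1.68 ± 0.184 between ovary and hypothalamus and 1.10 ± 0.184 between ovary and pituitary (adjusted p = 4.16e-07 and 8.38e-05).

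Of the partners of the anaphase-promoting complex, Ube2c, the ubiquitin-conjugating enzyme of the complex, had signals of 7.26 to 8.57 in the ovary, 4.95 to 6.75 in the pituitary and 3.99 to 5.41 in the hypothalamus, with the ovary apart from both. Its ovary excess was 3.12 ± 0.232 over the hypothalamus (adjusted p = 2.52e-09) and 1.73 ± 0.232 over the pituitary (adjusted p = 7.58e-06). Cdc20, its activator, had an ovary excess over the pituitary of 1.53 ± 0.142 (adjusted p = 7.73e-08), and its pituitary excess over the hypothalamus was 0.41 ± 0.142 (adjusted p = 0.0256), a call lost without the pools (0.45, adjusted p = 0.0698).

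Among the mitotic kinases, Plk1, the polo-like kinase of centrosomes and kinetochores, had the smallest adjusted p of the group. Its signals were 7.36 to 8.27 in the ovary, 5.28 to 6.31 in the pituitary and 4.92 to 5.19 in the hypothalamus, with no overlap between tissues. The ovary exceeded the hypothalamus by 2.72 ± 0.154 (adjusted p = 6.1e-11) and the pituitary by 2.08 ± 0.154 (adjusted p = 4.47e-09). Aurka, the centrosome kinase aurora A, was higher in the ovary than in the pituitary by 1.58 ± 0.151 (adjusted p = 1.18e-07). In the chromosomal passenger complex, aurora kinase B (Aurkb) and survivin (Birc5) had ovary excesses over the pituitary of 1.66 ± 0.191 and 1.62 ± 0.208 (adjusted p = 1.2e-06 and 4.34e-06). Aurkb did not pass between pituitary and hypothalamus, where it differed by 0.34 ± 0.191 (adjusted p = 0.168), and neither did Melk, a mitotic kinase, at 0.40 ± 0.182 (adjusted p = 0.0917).

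The spindle checkpoint holds a cell before anaphase until all chromosomes are attached. Its kinase Bub1 was higher in the ovary by 2.39 ± 0.169 than in the hypothalamus (adjusted p = 1.22e-09) and by 1.73 ± 0.169 than in the pituitary (adjusted p = 1.52e-07). Mad2l1, the checkpoint protein that inhibits Cdc20, had signals of 6.71 to 8.55 in the ovary and 6.20 to 7.62 in the pituitary, which overlapped widely. Its ovary excess over the pituitary was 0.63 ± 0.227 (adjusted p = 0.0334, higher in 4 of 6 animals or pools), and this call was lost in 11 of the alternative fits. Ttk, the kinase MPS1, did not pass between pituitary and hypothalamus, with a difference of 0.51 ± 0.25 (adjusted p = 0.117).

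At the centromere and kinetochore, Ndc80, the microtubule-binding subunit of the outer kinetochore, exceeded the hypothalamus level by 2.67 ± 0.241 in the ovary (adjusted p = 3.35e-08). Cenpa, the histone H3 variant of centromeres, was higher by 1.37 ± 0.172 in the ovary than in the pituitary (adjusted p = 3.27e-06). Cenpf had a small ovary excess over the pituitary, 0.53 ± 0.16 (adjusted p = 0.0124), which without the pools was 0.35 and did not pass (adjusted p = 0.177). Of the spindle and cytokinesis genes, Prc1, which bundles microtubules of the central spindle, was higher in the ovary by 2.998 ± 0.265 than in the hypothalamus (adjusted p = 2.45e-08). Kif11, the kinesin that pushes spindle poles apart, was higher in the ovary by 1.88 ± 0.277 than in the hypothalamus (adjusted p = 1.51e-05) and by 1.13 ± 0.277 than in the pituitary (adjusted p = 0.00275). Without the pools the Kif11 difference between ovary and pituitary was 0.65 and did not pass (adjusted p = 0.0905). Chek1, the kinase of the DNA damage checkpoint, was higher in the ovary by 1.58 ± 0.121 than in the hypothalamus (adjusted p = 3.69e-09).

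Anln, anillin, which scaffolds the contractile ring of cytokinesis and is also known from the myelinating cells of the mouse brain, departed from the order. Its signals were 6.94 to 7.71 in the ovary (median 7.15), 4.25 to 6.23 in the pituitary (median 5.52) and 6.36 to 7.48 in the hypothalamus (median 7.17). Ovary and hypothalamus overlapped almost entirely, with a difference of 0.13 ± 0.22 (95% interval -0.34 to 0.59, adjusted p = 0.682). The pituitary lay below both with no overlap, as 1.89% of all genes did. It was lower than the hypothalamus by -1.72 ± 0.22 (adjusted p = 4.66e-06).

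**Figure D2:**
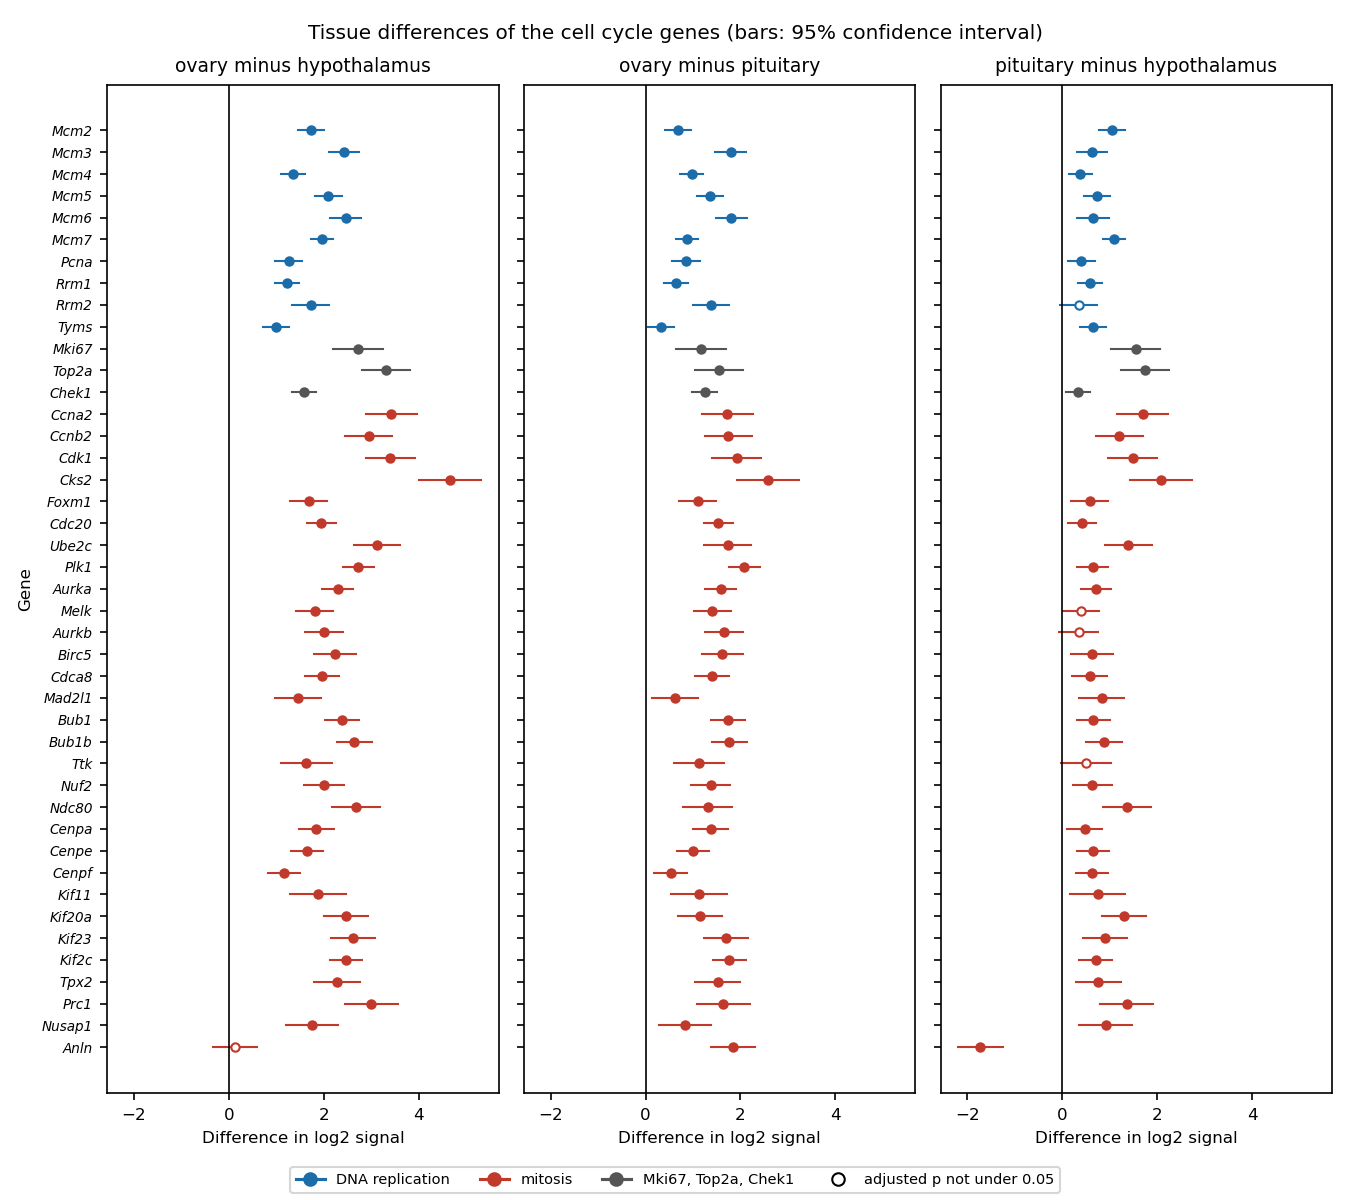
Difference in log2 signal between tissues for each of the 43 genes, ovary minus hypothalamus, ovary minus pituitary and pituitary minus hypothalamus, with 95% confidence intervals; open points did not reach an adjusted p under 0.05. Cks2 has the largest differences and Anln is the single point left of 0. In both comparisons with the ovary the replication median lies closer to 0 than the mitosis median. In pituitary minus hypothalamus these medians are close.

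Replication and mitosis genes differed in how far apart the tissues were. The median difference between ovary and hypothalamus was 1.73 over the 10 replication genes and 2.26 over the 30 mitosis genes, and between ovary and pituitary 0.92 and 1.56. Between pituitary and hypothalamus the medians were closer, 0.64 and 0.71. The mean of the replication genes minus the mean of the mitosis genes, compared across arrays and not read as a level of 1 group against the other, was 0.72 ± 0.14 in the ovary, 1.13 ± 0.44 in the pituitary and 1.27 ± 0.11 in the hypothalamus (SD, n = 6 arrays each). Within the pituitary it was 1.28, 1.02 and 1.39 under stress (high, low and pool) and 0.67, 0.65 and 1.77 in the control arrays. The 2 single control mice thus had the smallest offset of the pituitary arrays and the control pool the largest.

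How much the genes varied within a tissue depended on the gene. Cks2 had the largest SD over 6 arrays in each tissue, 1.04 in the ovary, 0.96 in the pituitary and 1.18 in the hypothalamus. Cdk1 followed in the ovary and the hypothalamus, with SDs of 0.98 and 0.75, and Mki67 in the pituitary, with 0.82. The smallest SDs were those of Cdca8, a passenger complex subunit, in the ovary (0.12), of Tyms and Chek1 in the pituitary (0.22 each) and of Plk1 in the hypothalamus (0.11). Most of the genes moved together from array to array. The correlation of a gene with the mean of the other 42 had a median of 0.82 in the ovary, 0.73 in the pituitary and 0.43 in the hypothalamus over 6 arrays each, against 0.01, 0.06 and -0.02 for genes outside the group. These correlations are descriptions: the arrays share animals between tissues, and array-wide shifts enter them. Ccnb2 had the highest in the ovary, 0.979, and Anln in the pituitary, 0.955, while Cenpf in the ovary had -0.603 and Mcm7 in the pituitary -0.396.

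Part of this spread followed pools against single mice. In the ovary the pool exceeded the mean of the 2 single mice by a median of 0.44 over the 43 genes under stress, with 32 of 43 higher, and by 0.46 in controls, with 35 of 43 higher; 51.1% of all genes were higher in the stressed pool. Cdk1 was 2.05 higher in the stressed ovary pool and 1.57 higher in the control ovary pool than in the single mice, and Cks2 1.86 and 1.51 higher. The summed signal of 11 oocyte markers was 1861 in the stressed ovary pool and 1656 in the control ovary pool, against 510.6 to 765.1 in the 4 single mice. That of 7 granulosa markers was 7589 and 7839 in those pools, against 3728 to 5465. The part of these markers in the pool differences was not tested. In the hypothalamus too the pools were higher, by medians of 0.18 under stress and 0.13 in controls. There 33 and 29 of 43 genes were higher, against 49.9% and 51.1% of all genes. Cks2 was 2.70 and 1.56 higher in those pools than in the single mice. In the pituitary the treatments differed: the pool was above the single mice by a median of 0.33 under stress and differed by -0.42 in controls, where 3 of 30 mitosis genes were higher in the pool, against 48.7% of all genes. Mki67 was at -2.09 and Prc1 at -1.88 in the control pituitary pool relative to the control single mice. Pools also stood apart from single mice in every tissue for some housekeeping and histone genes. Within each tissue Actb was higher and Hprt lower in the pools, while Gapdh overlapped. The histone gene H2ac15 was 4.74 to 7.71 in pools and 1.23 to 4.33 in single mice. H2ac20 was 3.58 to 5.59 in pools and 5.97 to 8.91 in single mice. The part of such shifts in the pool differences was not tested.

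The comparison of stressed with control mice asked whether transport changed these genes within a tissue. No gene of the 22180 passed an adjusted p under 0.05 in any tissue (limma, 6 arrays, percent called 0%), so none of the 43 is called changed. Without adjustment, p was under 0.05 for 592 genes in the ovary, 294 in the pituitary and 245 in the hypothalamus. Among the 43 these were 1 gene in the ovary, higher under stress (1.55% of all genes), 2 in the pituitary, lower (0.708%), and 2 in the hypothalamus, higher (0.496%). The blocked fit, which pairs the arrays of the same ovulation class, called none either. A rank or permutation test of 3 arrays against 3 could not fall below p = 0.1 for a single gene.

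In the pituitary most of the genes had lower means after stress, but the single mice and the pool went opposite ways. The median difference over the 43 genes was -0.32, against -0.04 over all genes, and 39 of the 43 were lower, against 56.4% of all genes. By ovulation class the median was -0.73 for high, -0.50 for low and 0.26 for pool. All 30 mitosis genes were lower in the stressed high mouse than in the control high mouse, against 56.5% of all genes, and likewise in the low mice, against 54.2%, with medians of -0.94 and -0.56. In the pools 4 of 30 were lower, against 52.8% of all genes, and the median was 0.38. The replication genes differed less, with medians of -0.54, -0.20 and -0.03.

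Counted at a difference of 0.5 or more, 31 of 43 genes were lower in the high mice, against 19% of all genes, and 22 of 43 in the low mice, against 8.03%. In the pools 0 of 43 were lower by that much, against 5.83% of all genes, and 14 of 43 were higher, against 8.25%. The mean of the mitosis genes was 4.85, 5.41 and 5.44 under stress (high, low and pool) and 5.85, 5.98 and 5.11 in controls. The 2 single stressed mice lay below the 2 single control mice, and the control pool lay below all but the stressed high mouse. Over the 3 arrays the mean was 5.23 ± 0.33 under stress and 5.65 ± 0.47 in controls (SD, n = 3 each), a difference within the spread. The stressed pool is the pituitary array with the luteal sum of 4089, and its granulosa sum was 991.1, against 306.7 to 453.5 in the other 5. The part of ovarian RNA in its values was not tested. The control pool is the pituitary array with the Pmch signal of 6.67, and the part of hypothalamic RNA in its values was not tested either. Without both pools the median over the 43 genes was -0.64, with 24 of 43 at an unadjusted p under 0.05, against 7.11% of all genes, and none passing the adjusted threshold. Without the stressed high mouse alone it was -0.15, without the control low mouse -0.15 and without the control pool -0.48.

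**Figure D3:**
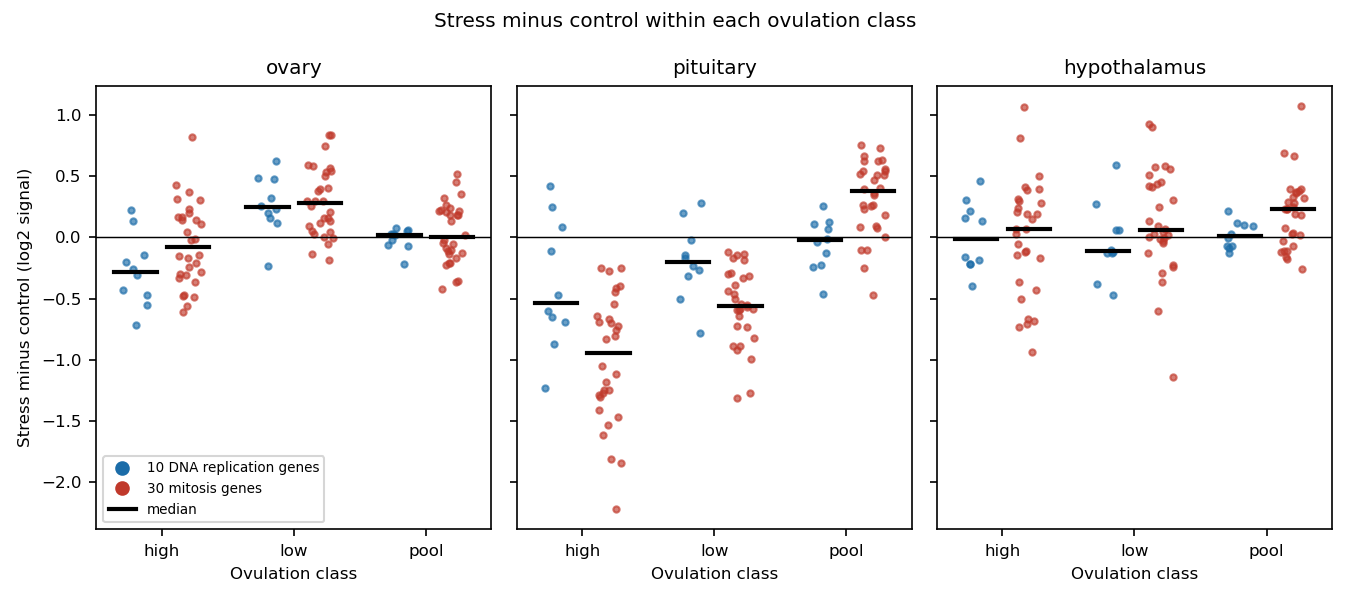
Stress minus control difference in log2 signal within each ovulation class and tissue, 1 point per gene for the 10 replication and 30 mitosis genes, with black bars at the medians. In the pituitary the mitosis medians are -0.94 and -0.56 in the single mice and 0.38 in the pools, and the replication medians lie closer to 0.

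Mad2l1 was the gene with the smallest p value of the 43 in the pituitary. Its signals were 6.21, 6.20 and 6.999 in the stressed arrays (high, low and pool), against 7.62, 7.20 and 7.47 in the control arrays. Every stressed array lay below every control array and the pools kept the direction of the single mice. The difference was -0.96 ± 0.279 (SE, 95% interval -1.59 to -0.32), and limma's adjusted p was 1. Cenpa also had no overlap, with 5.22, 5.59 and 5.59 under stress against 5.92, 5.92 and 5.84 in controls, a difference of -0.43 ± 0.212 (95% interval -0.91 to 0.06). These 2 genes are 2 of 43, while 3.68% of all genes were lower without overlap.

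Ndc80 had signals of 5.09, 4.68 and 4.75 in the stressed pituitaries, against 6.34, 5.96 and 4.85 in the controls. The control pool lay among the stressed arrays, and the difference was -0.87 ± 0.372 (95% interval -1.72 to -0.02). Cks2 was 4.81, 5.80 and 7.20 under stress against 7.02, 7.11 and 6.80 in controls, and had the largest mean difference, -1.04 ± 0.519 (95% interval -2.23 to 0.14). The stressed pool was the highest of the 6 arrays and the stressed high mouse the lowest. The fourth cluster named for Cks2 differed by -0.72 in the pituitary. Ttk differed by -0.85 ± 0.384 (95% interval -1.72 to 0.03) and was lower under stress in each class. Each of these genes had an adjusted p of 1 in the limma fit.

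The pituitary values of Mki67 and Top2a show how far the pools turn the result. Mki67 was 6.94, 7.54 and 6.89 under stress against 7.64, 8.19 and 5.82 in controls, and Top2a was 5.51, 6.03 and 5.87 against 6.77, 6.67 and 4.90. For both genes the single stressed mice lay below the single control mice and the control pool was the lowest array. The mean differences were -0.09 ± 0.547 for Mki67 and -0.31 ± 0.472 for Top2a, both within the spread. Mcm2 was 6.52, 6.97 and 7.38 under stress against 6.99, 7.11 and 7.60 in controls, lower in each class. Its mean difference of -0.28 ± 0.289 was within the spread. Chek1 had the highest difference of the 43, 0.12 ± 0.235, followed by Mcm7 at 0.11 and Cdca8 at 0.08.

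In the ovary stressed and control arrays were close. The median over the 43 genes was 0.07, against -0.02 over all genes, with 25 of 43 higher under stress, against 46.8% of all genes, and it was 0.09 without both pools. By ovulation class the medians were -0.16 for high, 0.26 for low and 0.02 for pool. Markers of other ovarian cells differed by class in the same arrays: the 7 granulosa genes had medians of -0.30, 0.44 and -0.28 and the 11 oocyte genes of -0.24, 0.49 and 0.11 in the same order, and their part was not tested. Without the control low mouse the median over all classes was -0.13, and without the stressed pool -0.08. In the low mice 38 of 43 were higher under stress, against 50.5% of all genes. Mki67 was 8.29, 8.53 and 8.34 under stress against 8.11, 8.42 and 8.33 in controls, and the groups overlapped.

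Kif11 was the gene with the smallest unadjusted p of the 43 in the ovary (limma). Its signals were 7.06, 7.07 and 6.96 in the stressed arrays (high, low and pool), against 6.24, 6.23 and 6.70 in the control arrays. All stressed arrays lay above all control arrays, which was true of 1 of the 43 genes (2.33%) and of 4.71% of all genes. This count is therefore not read as a result about the group. The difference was 0.64 ± 0.19 (95% interval 0.21 to 1.07), and limma's adjusted p was 0.999. The 8 spindle and cytokinesis genes, Kif11 among them, all had higher means under stress, against 46.8% of all genes, with a median of 0.24. Of these, Kif23, Kif2c and Tpx2 were not higher in each class. Other roles went the other way: Cdc20 and Ube2c, and the passenger complex genes Aurkb, Birc5 and Cdca8, had lower means under stress. Nusap1, which stabilizes spindle microtubules, differed by 0.47 ± 0.296 and Prc1 by 0.34 ± 0.211, both within the spread. The lowest differences were those of Cdc20 at -0.23 ± 0.201, Foxm1 at -0.22 ± 0.291 and Mcm2 at -0.21 ± 0.253.

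**Figure D4:**
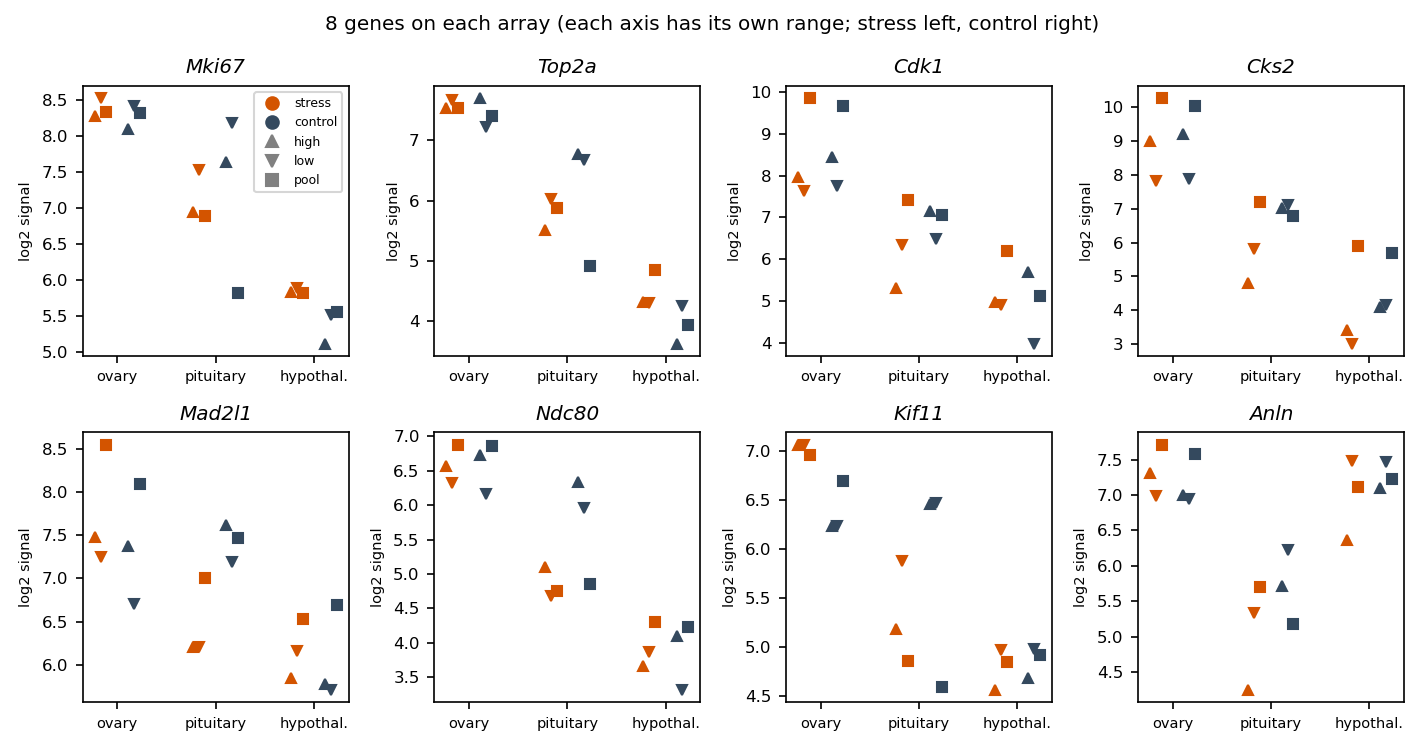
Log2 signal of single genes in stressed and control arrays, 1 point per array with the ovulation class marked. Mad2l1 in the pituitary and Kif11 in the ovary have no overlap between treatments, while the control pool is the lowest pituitary array for Mki67 and Top2a.

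In the hypothalamus the median over the 43 genes was 0.10, against -0.02 over all genes, and 30 of 43 were higher under stress, against 44.5% of all genes; without both pools the median was 0.07. Mki67 was 5.83, 5.88 and 5.82 under stress against 5.11, 5.51 and 5.56 in controls, with no overlap. Its difference was 0.45 ± 0.196 (95% interval 0.01 to 0.89). Top2a was 4.31, 4.30 and 4.85 under stress against 3.62, 4.25 and 3.93 in controls, again with no overlap, a difference of 0.56 ± 0.243 (95% interval 0.01 to 1.11), and limma's adjusted p was 1 for both genes. In all, 5 of the 43 were higher without overlap, against 1.94% of all genes; the other 3 were Cenpa, Kif20a and Kif23, at 0.28, 0.24 and 0.33, each with an interval that includes 0. The stressed hypothalamus pool carried the luteal sum of 2035. For Mki67 that pool was the lowest of the stressed arrays, and for Top2a the highest. Cdk1 differed by 0.43 ± 0.467, and the lowest were Cks2 at -0.53 ± 0.717, Anln at -0.28 ± 0.287 and Mcm3 at -0.25 ± 0.267. The fourth cluster named for Cks2 went the other way in the hypothalamus, at 0.20, so its place there rests on the cluster used.

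Whether the stress difference itself differed between tissues was tested as an interaction over all 18 arrays, and no gene passed the adjusted threshold in any pair of tissues (limma, 0% of all genes). Without adjustment, p was under 0.05 for 846 genes for ovary minus pituitary, 558 for ovary minus hypothalamus and 837 for pituitary minus hypothalamus. Among them 4 of the 43 were higher in ovary minus pituitary (1.91% of all genes), namely Mad2l1, Ttk, Kif11 and Mcm6. A further 6 were lower in pituitary minus hypothalamus (1.98% of all genes), namely Mad2l1, Ttk, Ube2c, Ndc80, Foxm1 and Cenpa. Ovary minus hypothalamus had 0 of 43. The medians over the 43 genes were 0.37, -0.05 and -0.41 for ovary minus pituitary, ovary minus hypothalamus and pituitary minus hypothalamus. Without the pools these medians were 0.69, -0.004 and -0.76, still with 0 genes called, and 18, 2 and 17 of the 43 had an unadjusted p under 0.05, against 5.1%, 3.44% and 5.33% of all genes. These comparisons share arrays with the stress comparisons and with each other.

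Mice with the most oocytes were compared with mice with the fewest, with treatment in the fit and the spread resting on 2 residual degrees of freedom. No gene passed the adjusted threshold in any tissue (limma, 0% of all genes), and 2382 genes in the ovary, 1160 in the pituitary and 4275 in the hypothalamus had an unadjusted p under 0.05. In the ovary the median over the 43 genes was 0.17, and 6 of 43 were higher in the high mice at that unadjusted level (5.45% of all genes), namely Cks2, Nusap1, Ccnb2, Cdk1, Mad2l1 and Ndc80. Cks2 was 8.99 and 9.20 in the stressed and control high mice, against 7.82 and 7.88 in the low mice. The high mice lay above the low mice in both treatments, by 1.24 ± 0.173 (95% interval 0.83 to 1.66), and limma's adjusted p was 0.408. The ovary median was -0.03 in the stressed pair and 0.30 in the control pair, where 41 of 43 were higher, against 51% of all genes. The granulosa mean log2 signal was 8.03 in the high and 8.21 in the low mouse under stress, and 8.43 in the high and 7.74 in the low mouse in controls. Its part in the pair differences was not tested.

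In the pituitary the median difference between high and low mice was -0.35, with 4 of 43 lower at an unadjusted p under 0.05 (2.06% of all genes): Mcm4, Ccnb2, Cdc20 and Ttk. The stressed pair had a median of -0.48 and the control pair of -0.11 over the same genes. Ccnb2 was 6.21 and 6.91 in the stressed and control high mice, against 6.96 and 7.68 in the low mice, a difference of -0.76 ± 0.256 (limma's adjusted p = 0.9). In the hypothalamus the median was -0.06, with 3 of 43 higher (8.26% of all genes) and 5 lower (11% of all genes). Ube2c had the smallest p there, with a difference of 0.76 ± 0.177 (limma's adjusted p = 0.141). Anln differed by -0.74 ± 0.219 (limma's adjusted p = 0.169).

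Other genes of the cell cycle were read from lists of further pathway members, counted at an adjusted p under 0.05 in the same limma fits. Of all genes, 27% were higher and 22.3% lower in the ovary than in the hypothalamus, and 23.2% higher and 20.3% lower than in the pituitary. Of 29 other mitosis genes measured, 28 were higher and 1 lower in the ovary than in the hypothalamus, and 22 higher and 2 lower than in the pituitary. Kif22, a chromosome-arm kinesin, exceeded the hypothalamus level by 2.31 in the ovary, and Racgap1, of the central spindle, was lower in the ovary than in the pituitary by -1.36. Replication-dependent histone genes, from a list drawn up for RNA quality, were higher in the ovary than in the hypothalamus for 11 of 12. Against the pituitary 8 of 12 were higher in the ovary. Of 11 genes of origin licensing and firing, 9 were higher in the ovary against each other tissue, with Dbf4, the activator of the CDC7 kinase, at 1.76 against the hypothalamus. Of 15 cell cycle inhibitors, 7 were higher and 2 lower in the ovary than in the hypothalamus, and 3 higher and 4 lower than in the pituitary, where both counts were near the share over all genes. Among the G1/S cyclins, kinases and E2F factors 8 of 14 were higher in the ovary than in the pituitary and 2 lower, the D cyclins Ccnd1 at -2.12 and Ccnd2 at -1.44.

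Between stressed and control pituitaries 0 genes of these lists were called. The other mitosis genes had medians of -0.66 in the high mice, -0.22 in the low mice and 0.24 in the pools, and the histone genes of -0.82, -0.06 and 0.15. The cell cycle inhibitors had medians of -0.03, -0.05 and -0.01. In the ovary 10 of 12 histone genes had lower means under stress, against 53.2% of all genes, with a median of -0.34. Of the other mitosis genes 20 of 29 had higher means, against 46.8% of all genes, with a median of 0.13. None was called, and the part of RNA quality in the histone values was not tested.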

How the data were processed

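Affymetrix Mouse Gene 2.0 ST arrays were hybridised with biotin-labelled RNA from 3 tissues, 18 arrays in all. The authors deposited 1 value per transcript cluster and array, made with Transcriptome Analysis Console per the submitters' processing notes; its version, summarization and normalization are not given in the sources used here. The deposited values were taken as log2 signals: their maximum of 13.66 is above the natural log of a 16-bit scanner's range (11.09) and below its log2 (16). They were used as deposited. Of 41345 clusters, 23521 name 1 gene, giving 22180 genes, and 1814 name several genes and were left out.

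Tests used limma 3.58.1 in R 4.3.3 (lmFit and eBayes, Benjamini-Hochberg over all genes, threshold 0.05), and the fit was tested on simulated data. Stress was tested per tissue on 6 arrays. Tissues and the interaction were tested on 18 arrays with the animal or pool as a block, and high minus low ovulation per tissue with treatment as a term. Deviations of arrays of the same ovulation class in stress and control correlated at 0.359 to 0.727 (9 pairs), against -0.521 to 0.321 for different classes. The classes were therefore taken as pairs for the blocked alternative. These ranges rest largely on pools against single mice, since pool with pool gave 0.66 to 0.727. Between single mice the same class gave 0.359 to 0.52, against -0.05 to 0.321 for different classes. In the pituitary the single mice gave 0.366 and 0.359 against 0.313 and 0.321. The labels give no replicate numbers. Motif counts and figures used Python 3.11.15 and matplotlib 3.10.9. Alternatives were quantile normalization, median centring, a filter on low values, the mean of a gene's clusters, array weights, the class block, and leaving out each array or all pools.

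The genes and all lists were chosen with earlier results of these data known. Genes named with values were a list of 26, the 3 highest and 3 lowest differences of each comparison, and up to 4 of smallest p per other list; others, such as Kif20a and Kif23, were named after their values were seen. The array's precision is limited by 3 arrays per group.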

Additional observations from a re-analysis of the deposited data

Results flagged for a closer look

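These genes were flagged because every ovulation class moved one way under stress in 1 tissue and the opposite way in another. In limma's interaction test the adjusted p of each was 1. Mad2l1 was higher under stress in 3 of 3 ovary classes and lower in 3 of 3 pituitary classes, and the ovary minus pituitary difference of the stress differences was 1.32. Ttk was lower in each pituitary class and higher in each hypothalamus class, with a pituitary minus hypothalamus difference of -1.03. Cenpa was lower in each pituitary class and higher in each hypothalamus class, at -0.71, and was lower in each ovary class and higher in each hypothalamus class, at -0.41. Kif11 was higher in each ovary class and lower in each hypothalamus class, with an ovary minus hypothalamus difference of 0.70. Such opposite classes were found for 1 of the 43 genes in ovary and pituitary, against 3.4% of all genes, and for 2 of 43 in each of the other tissue pairs, against 3.57% and 2.99%. These counts are near the shares over all genes.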

How the results depend on the processing

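The medians over the 43 genes kept their sign under every alternative run except leaving out 1 array. With the ovulation class as a replicate block the stress comparison still called 0 genes, with 4, 6 and 2 of the 43 genes at an unadjusted p under 0.05 in the ovary, pituitary and hypothalamus, against 9.91%, 5% and 4.16% of all genes, and the block changed no call. Without the block of animals and pools, 42, 42 and 35 of the 43 genes passed between ovary and hypothalamus, ovary and pituitary, and pituitary and hypothalamus, against 43.3%, 36.4% and 35.1% of all genes. Keeping only genes at or above the median level left 26 of the 43 genes in the tissue fits, of which 25, 26 and 25 passed, against 71.8%, 64.1% and 64.1% of the 11090 genes kept. The same filter gave a stress median of 0.039 in the hypothalamus over 8 genes, and called 1138 genes between high and low ovulation there. With 250 bases before the start only, CHR was in 28.9% of the 38 promoters; over 27025 genes with 1 promoter each, CHR was in 17.4%, CCAAT in 34.5% and E2F in 1.91%. Array weights gave a pituitary stress median of -0.47. Quantile normalization moved single calls between tissues: Tyms 0.24 and Mad2l1 0.53 in ovary minus pituitary, and Chek1 0.30 in pituitary minus hypothalamus, no longer passed.

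Leaving out 1 array at a time, the stress median ranged over -0.13 to 0.22 in the ovary, -0.48 (without the control pool) to -0.15 (without the stressed high mouse) in the pituitary and 0.016 to 0.182 in the hypothalamus, with 0 genes called. In the pituitary 1 to 15 of the 43 genes then had an unadjusted p under 0.05 (15 without the control pool, against 3.77% of all genes). The interaction medians ranged over 0.15 to 0.63 for ovary minus pituitary, -0.23 to 0.19 for ovary minus hypothalamus (lowest without the control low ovary, highest without the control ovary pool) and -0.76 to -0.20 for pituitary minus hypothalamus. High minus low ovulation had medians of -0.03 (without the control low mouse) to 0.29 in the ovary with 0 to 27 genes called (27 without the control high mouse), -0.68 to 0.03 (without the stressed high mouse) in the pituitary and -0.13 to 0.05 (without the control low mouse) in the hypothalamus with 0 to 1 gene called. Tissue medians stayed at 1.94 to 2.15, 1.35 to 1.54 and 0.54 to 0.78, with 42, 40 to 43 and 32 to 40 of the 43 genes called, against at most 50.1%, 44.9% and 42.7% of all genes. Pituitary minus hypothalamus calls of Chek1, Cenpa, Pcna, Cdc20 and Kif11 were each lost in 7 to 10 alternatives, and without the pools the ovary minus pituitary calls of Tyms, Mad2l1, Kif11 and Cenpf were lost; the cause was not tested.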
